A study of Mus musculus with 2 samples.

Results

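Within 1 library of mouse pluripotent and differentiating cells, naive-like cells rich in Nanog transcripts were compared with naive-like cells in which no Nanog transcript was counted. The cells were chosen by their counts of unique molecular identifiers (UMIs), each of which marks 1 captured RNA molecule. Each had to be a called cell with at least 1000 genes, at most 10% mitochondrial UMIs and 5000 to 12000 gene UMIs. It also needed at least 10 UMIs per 10000 of Zfp42, Klf2, Esrrb and Nr5a2 together, and under 3 UMIs of Rhox6 and Rhox9 together. Of 21593 called cells, 10936 passed the filters and the depth window, 3576 of these carried the naive markers, and 221 of those were left out for their Rhox UMIs, which left 3355 naive-like cells. The Nanog-high side held the 935 cells with at least 2 Nanog UMIs, and the Nanog-negative side the 1477 cells with 0, together 2412 cells. The 943 cells with 1 Nanog UMI lay just outside both sides.

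Nanog is a homeodomain transcription factor of the inner cell mass and early epiblast that works with Pou5f1 (OCT4) and Sox2 to hold cells in the pluripotent state. In cultures of naive embryonic stem cells its level is known to differ from cell to cell, and cells low in Nanog are known to be able to regain it. Naive cells resemble the epiblast before implantation and depend on the LIF and STAT3 pathway with factors such as Klf4, Esrrb and Tfcp2l1. Primed cells resemble the epiblast after implantation, depend on FGF and Nodal signals, and carry Fgf5, Pou3f1 and Otx2.

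The labels describe 2 samples of the mouse line Delmix, 1 of untreated epiblast stem cells and 1 of embryoid bodies taken on day 2 after being made from them, both dissociated with trypsin. All counts lie in 1 pooled matrix whose cell tags match no sample label, so neither side can be given to a sample or culture condition. The sides are groups of cells from 1 library and not replicates, and no test between them was possible. Intervals are exact 95% intervals that cover counting error only, Poisson for levels and binomial for shares of cells. Levels are UMIs per 1000000 (CPM) after adding up all cells of a side, and a fold is the ratio of 2 such levels after adding 1 CPM to each. The sums held 7513532 UMIs for the Nanog-high and 10720695 for the Nanog-negative side.

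The Nanog counts that chose the sides were low in all cells and are given as a description. Naive-like cells had a mean of 1.04 Nanog UMIs (137 CPM). A count of 0 was found in 44.0% of them (42.3 to 45.7%), a count of 1 in 28.1% (26.6 to 29.7%), a count of 2 in 16.1% (14.9 to 17.4%) and a count of 3 in 6.44% (5.63 to 7.32%). The remaining 178 cells had 4 to 9. With each cell thinned to 5000 UMIs the variance of the Nanog count was 1.30 times its mean, where counting error alone gives a ratio of 1. The same ratio was 1.16 for Pou5f1, 1.23 for Sox2, 2.07 for Dppa3, 2.81 for Mylpf and 3.79 for Lefty1. Their means after thinning were 3.14, 1.73, 0.952, 1.43 and 0.636 UMIs, against 0.677 for Nanog. For an equal relative spread the ratio rises with the mean, so it does not rank these genes by relative spread. A count of 0 does not show that a cell lacked Nanog RNA, and "Nanog-negative" is used here only for the count. In collagen-rich cells of the same library, which should lack Nanog, 7.24% of 221 cells had a Nanog UMI (5.43% after thinning, 2.84 to 9.29%), at a median of 7376 UMIs per cell against 7226 in naive-like cells. Called doublets made up 9.50% of the collagen-rich cells, and 0.149% of the naive-like cells were also among them. The part of either in the collagen-rich shares here and below was not tested.

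**Figure D1:**
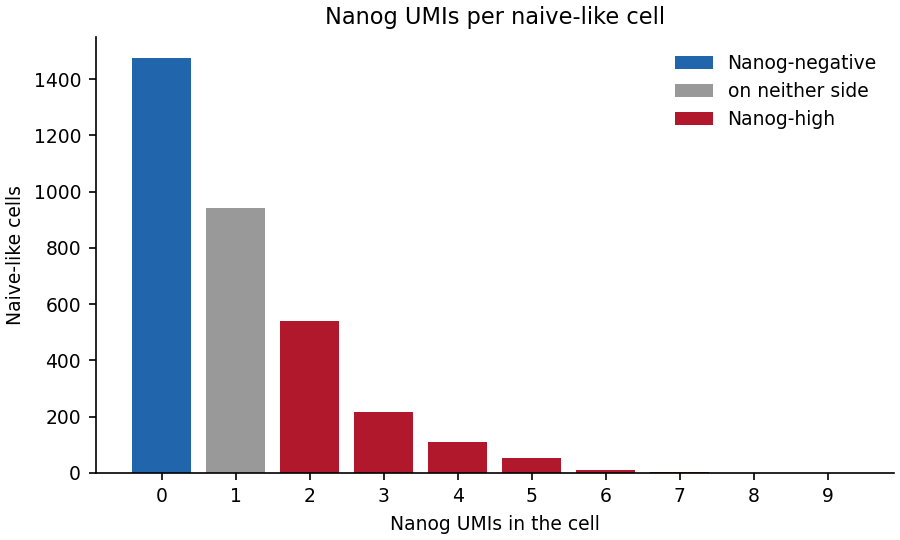
Number of naive-like cells (vertical axis) by the Nanog UMIs counted in the cell (horizontal axis), with the Nanog-negative cells in blue, the Nanog-high cells in red and the cells on neither side in grey. The bars fall from 1477 cells at 0 UMIs to 943 at 1 and 541 at 2, with no gap between low and high counts.

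The label naive-like was compared with markers that the rule did not use. The lists were chosen with earlier results of these data known, so this is no independent check. Of 20 other naive pluripotency genes with at least 20 CPM, 16 stood at least 2-fold above the remaining 7360 cells of the same depth window on both sides. Summed over that list, the level was 7700 CPM in Nanog-high, 6513 CPM in Nanog-negative and 2700 CPM in the remaining cells. Most of that sum was Dppa5a, an RNA-binding protein of naive cells, at 5089, 4379 and 1684 CPM. The sum is no marker by itself, since collagen-rich cells reached 6986 CPM on Spp1, which alone gave 6228 CPM there. The primed and formative epiblast list stood at 705, 904 and 1809 CPM. The 16 primitive endoderm genes together stood at 73.5 and 88.7 CPM, against 342 CPM in the remaining cells. Of these, 2 had at least 20 CPM, Lamb1 and Sparc. Lamb1 was counted as lower in Nanog-high cells, at a log2 ratio of -0.41, or 1.15-fold lower weighted. The factors Gata6 and Sox17 were near 0 on both sides. Gata6, a factor of primitive endoderm, had 1 and 12 UMIs, and Sox17, of endoderm, 0 and 2, where a count of 0 allows up to 3. The 16 primitive streak and mesoderm genes together stood at 33.3 and 36.8 CPM, against 237 CPM in the remaining cells. The 13 fibroblast or feeder genes stood at 197 and 222 CPM, of which Fn1 gave 161 and 165, against 13404 CPM in collagen-rich cells. The 11 macrophage genes stood at 19.4 and 9.05 CPM, and among them Lyz2 had 43 and 9 UMIs. The 14 neuroectoderm genes stood at 173 CPM in Nanog-high, 132 CPM in Nanog-negative and 207 CPM in the remaining cells. Most of that was Tubb3, described below, with Ncam1, a cell adhesion molecule, at 29.1 against 18.9 CPM, both counted as higher in Nanog-high cells. After thinning, Ncam1 was found in 43.9% of collagen-rich cells, against 10.4% of Nanog-high and 7.85% of Nanog-negative cells. For Tubb3 these shares were 6.33%, 35.4% and 26.9%. Sox1, a defining neural factor, had 9 and 16 UMIs. The part of macrophage or neural RNA in the results was not tested.

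Other properties of the cells moved with the sides. The median depth was 7825 UMIs in Nanog-high and 6874 in Nanog-negative cells, and 47.5% and 29.9% of the cells had at least 8000 UMIs. The summed naive markers of the rule had a median of 24.5 per 10000 UMIs in Nanog-high and 19.2 in Nanog-negative cells. Among these 4 genes the difference lay in Zfp42 (1350.1 against 996 CPM), Esrrb (123 against 92.4 CPM) and Nr5a2 (108 against 76.9 CPM), while Klf2 stood at 949 and 933 CPM. Called doublets made up 10.4% of Nanog-high (8.49 to 12.5%) and 13.7% of Nanog-negative cells (12 to 15.5%). The median mitochondrial share was 3.27% and 3.21%. Summed S phase genes had medians of 45.6 and 45.4 per 10000 UMIs and summed G2 and M phase genes 73.9 and 71.4. The gene folds, gene counts and list medians were therefore also computed with the Nanog-negative cells weighted to the same mix of naive marker level and depth, called the weighted value. The match was by bins of naive marker level and by depth under or from 8000 UMIs, so it is coarse. Weighted, Nr5a2 was still 1.23-fold, Esrrb 1.16-fold and Zfp42 1.07-fold higher in Nanog-high cells, and Klf2 1.10-fold lower. Shares of cells and levels along the Nanog count were not weighted.

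Most of the transcriptome differed little between the sides. Of 6515 genes with at least 20 CPM on 1 side, without the 7 genes of the rule, 223 were higher in Nanog-high cells (3.42% of genes) and 143 lower (2.19%), where a gene is counted as higher or lower if the fold of the higher side over the other was at least 25% above 1. The same count rule is used throughout. At 1.5-fold these were 28 (0.43%) and 16 (0.246%). The median log2 ratio was 0.01, and 90% of genes lay between -0.23 and 0.28. In the weighted comparison 190 genes were higher and 106 lower, and 20 and 4 passed 1.5-fold. The ratio kept its sign in cells of 5000 to 8000 and of 8000 to 12000 UMIs for 222 of the 223 higher and 142 of the 143 lower genes. Both bands are parts of the cells whose sums picked these genes, so most signs agree by construction and this is no replication.

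**Figure D2:**
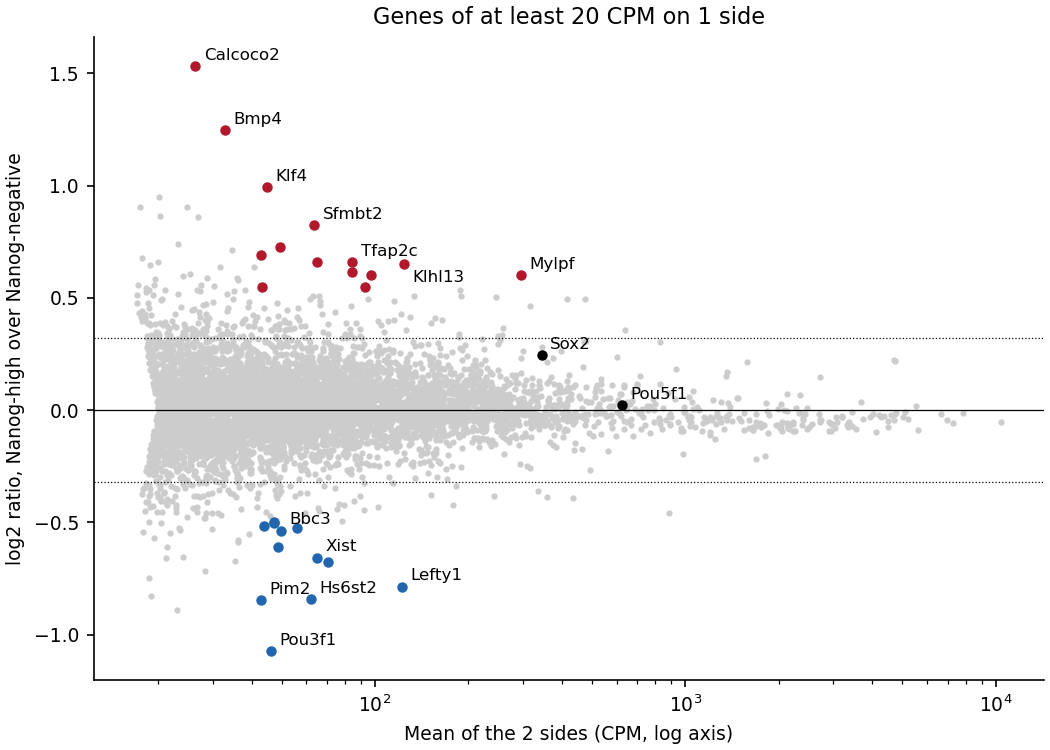
Each dot is a gene of at least 20 CPM on 1 side, by the mean of both sides in CPM (horizontal log axis) and the log2 ratio of Nanog-high over Nanog-negative (vertical axis); dotted lines mark a 25% difference, red and blue dots are genes named in the text as higher or lower, and black dots are Pou5f1 and Sox2. Calcoco2 stands highest, at 1.53, ahead of Bmp4 and of Klf4 at 0.99, and Pou3f1 lowest, at -1.07.

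Of the pluripotency factors that both states share, Pou5f1 stood at nearly the same level on the 2 sides and Sox2 was somewhat higher with Nanog. Pou5f1 (ENSMUSG00000024406), the POU factor OCT4, stood at 632 CPM (614 to 650) in Nanog-high and 622 CPM (607 to 637) in Nanog-negative cells, intervals that overlap. Sox2 (ENSMUSG00000074637), its partner, stood at 374 CPM (360 to 388) against 315 CPM (304 to 326), intervals that do not overlap. The difference was 1.19-fold, under the 25% rule, and 1.13-fold in the weighted comparison. None of the 12 core pluripotency genes was higher or lower by 25%, and their median log2 ratio was 0.05. Over all genes tested 3.42% were higher and 2.19% lower, so a count of none among 12 lies near those shares.

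The genes higher with Nanog were led, among those of at least 50 CPM, by Klf4. Klf4 (ENSMUSG00000003032), a Krüppel-like factor of the naive network and a target of LIF and STAT3, stood at 59.9 CPM (54.5 to 65.7) in Nanog-high and 29.6 CPM (26.4 to 33.0) in Nanog-negative cells, a 1.99-fold difference (1.75 to 2.35) and 1.73-fold in the weighted comparison. Sfmbt2 (ENSMUSG00000061186), a Polycomb-group protein, stood at 81.6 against 45.7 CPM, 1.77-fold, or 1.87-fold weighted. Tfap2c (ENSMUSG00000028640), an AP-2 factor of germ cells, trophoblast and naive pluripotency, stood at 104 CPM (96.5 to 111) against 65.3 CPM (60.5 to 70.3), 1.58-fold, or 1.46-fold weighted. These intervals do not overlap between the sides.

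The other 9 of the 12 named higher genes had folds between 1.46 and 1.65. Mylpf (ENSMUSG00000030672), which encodes a myosin light chain and is a known transcript of naive cells, was the most abundant, at 356 CPM (343 to 370) against 234 CPM (225 to 244), 1.52-fold, or 1.34-fold weighted. Klhl13 (ENSMUSG00000036782), an X-linked adaptor of a ubiquitin ligase, stood at 152 against 96.1 CPM, 1.57-fold, or 1.59-fold weighted. Nup62cl, at 61.6 against 36.8 CPM, Ticrr, a regulator of replication origins, at 53.2 against 32.6 CPM, and Ctnnal1, a relative of alpha-catenin, at 80.1 against 50.4 CPM, each differed by 1.58- to 1.65-fold. Rbm47, an RNA-binding protein, stood at 102 against 66.2 CPM, and Epb41l4a at 117 against 77.0 CPM. Tubb3, a tubulin best known from neurons, stood at 110 against 74.9 CPM, and S100a13, a calcium-binding protein, at 51.4 against 34.8 CPM. S100a13 and Klf4 were also present in collagen-rich cells. After thinning, 52.9% of collagen-rich cells had a UMI of S100a13, against 15.5% of Nanog-high and 10.2% of Nanog-negative cells. For Klf4 these shares were 37.1%, 20.4% and 11.6%. The other named higher genes were less frequent in collagen-rich cells than on either side. The level in the remaining cells of the depth window was below both sides for all 12 genes.

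A pair of genes under 50 CPM had larger folds. Bmp4 (ENSMUSG00000021835), a ligand of the BMP pathway, stood at 46.6 CPM (41.8 to 51.7) against 19 CPM (16.5 to 21.8), 2.38-fold (2.05 to 2.92) and 2.12-fold weighted. Calcoco2 (ENSMUSG00000006056), an autophagy receptor also called NDP52, had the largest fold of the genes tested and is named here because of its value. It stood at 39.7 CPM (35.3 to 44.4) against 13.1 CPM (11 to 15.4), 2.89-fold (2.48 to 3.74) and 2.26-fold weighted. In cells with at least 4 Nanog UMIs Calcoco2 reached 83.5 CPM. Of thinned cells, 11.8% of Nanog-high and 4.6% of Nanog-negative cells had a UMI of it (15.6% and 6.77% unthinned), against 0.452% of collagen-rich cells (0.905% unthinned).

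The genes lower with Nanog were led by Pou3f1 and Pim2, both of the primed and formative epiblast list. Pou3f1 (ENSMUSG00000090125), the POU factor OCT6 of the primed epiblast and of neural cells, stood at 29.4 CPM (25.7 to 33.6) in Nanog-high and 63.0 CPM (58.3 to 67.9) in Nanog-negative cells, 2.10-fold lower (1.84 to 2.50) and 1.69-fold lower in the weighted comparison. Pim2 (ENSMUSG00000031155), a serine and threonine kinase, stood at 30.3 against 55.3 CPM, 1.80-fold lower, or 1.5-fold weighted. Hs6st2, a heparan sulphate sulphotransferase, stood at 44.3 against 80.2 CPM, 1.79-fold lower, or 1.47-fold weighted. In the remaining cells of the depth window these stood at 166, 267 and 182 CPM, above both sides, as did all 12 named lower genes.

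Lefty1 (ENSMUSG00000038793), a secreted inhibitor and target of Nodal, stood at 89.6 CPM (82.9 to 96.6) against 155 CPM (148 to 163), 1.72-fold lower, or 1.37-fold weighted. Its log2 ratio was -1.11 in cells of 5000 to 8000 UMIs and -0.40 in deeper cells. The other 8 named lower genes had folds between 1.41 and 1.60. Zfhx3, a zinc finger homeobox factor, stood at 53.9 against 86.7 CPM and the noncoding RNA Xist, which silences an X chromosome, at 50.2 against 79.7 CPM. Gstt2, a glutathione transferase, stood at 38.5 against 59.1 CPM. Bbc3, the death-promoting protein PUMA and a target of p53, stood at 40.3 against 59.0 CPM, and Skil, the SMAD corepressor SnoN, at 45.7 against 66.1 CPM. Mbnl2, a splicing regulator, Kcnj3, a potassium channel, and Epha2, an ephrin receptor, stood at 36.1, 39.0 and 39.0 CPM in Nanog-high and at 52.0, 55.6 and 55.4 CPM in Nanog-negative cells. Mbnl2 was 1.24-fold lower in the weighted comparison, under the fold used here. After thinning, Mbnl2, Zfhx3, Hs6st2 and Xist were found in 79.2%, 53.8%, 38.5% and 32.6% of collagen-rich cells. In Nanog-negative cells they were found in 20.5%, 30.1%, 23.4% and 18.3%. The other named lower genes were less frequent in collagen-rich cells than on either side. At least 2 collagen UMIs were found in 3 Nanog-high and 11 Nanog-negative cells, and their part in the result was not tested.

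Shares of cells with a UMI moved with these levels. After thinning to 5000 UMIs, Tfap2c was found in 34.2% of Nanog-high, 28.3% of 1-UMI and 22.8% of Nanog-negative cells (44.8%, 37.2% and 28.4% unthinned), against 2.26% of collagen-rich cells (3.17% unthinned). Mylpf was found in 64.2%, 58.7% and 47.9% (73.5%, 67.3% and 55.2% unthinned), against 5.88% of collagen-rich cells (9.05% unthinned). Pou3f1 was found in 10.9%, 16.8% and 19.7% (16.9%, 22.8% and 25.9% unthinned), against 6.33% of collagen-rich cells (9.50% unthinned). Bmp4 was found in 17% of Nanog-high cells (14.7 to 19.6%), while its 7.38% in Nanog-negative cells was not above the 9.05% of collagen-rich cells (24.7%, 10.7% and 15.4% unthinned). The median depths of the 4 groups were 7825, 7163, 6874 and 7376 UMIs. A cell-free droplet held on average 217 UMIs, and its mean count of each of the 12 lower genes was 2.30 to 10.7% of that in a Nanog-negative cell; its share in the difference was not tested.

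Levels were also read along the Nanog count itself, with the 943 cells of 1 UMI that the sides leave out. Klf4 stood at 29.6, 41.5, 54.5, 63.6 and 70.5 CPM in cells with 0, 1, 2, 3 and at least 4 Nanog UMIs. Klhl13 stood at 96.1, 117, 131, 153 and 207 CPM in the same order. Lefty1 stood at 155, 120, 95.2, 95.5 and 67.2 CPM, and Pou3f1 at 63.0, 46.1, 32.2, 26.7 and 24.8 CPM. The median depth rose along the same bins, from 6874 UMIs at 0 to 8410.5 at 4 or more, and its part in these levels was not tested. Pou5f1 stayed between 619 and 641 CPM. The level in cells with 1 UMI lay between the sides for 11 of the 12 named higher and 12 of the 12 named lower genes. It did so for 43.0% of all 6515 genes, and genes picked for a large difference lie between more often by construction. The exception was S100a13, at 34.0 CPM with 1 UMI. Not every gene kept its order: Pim2 stood at 55.3, 42.7, 26.3, 39.8 and 30.7 CPM, with 216 and 178 cells behind the last 2 values.

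**Figure D3:**
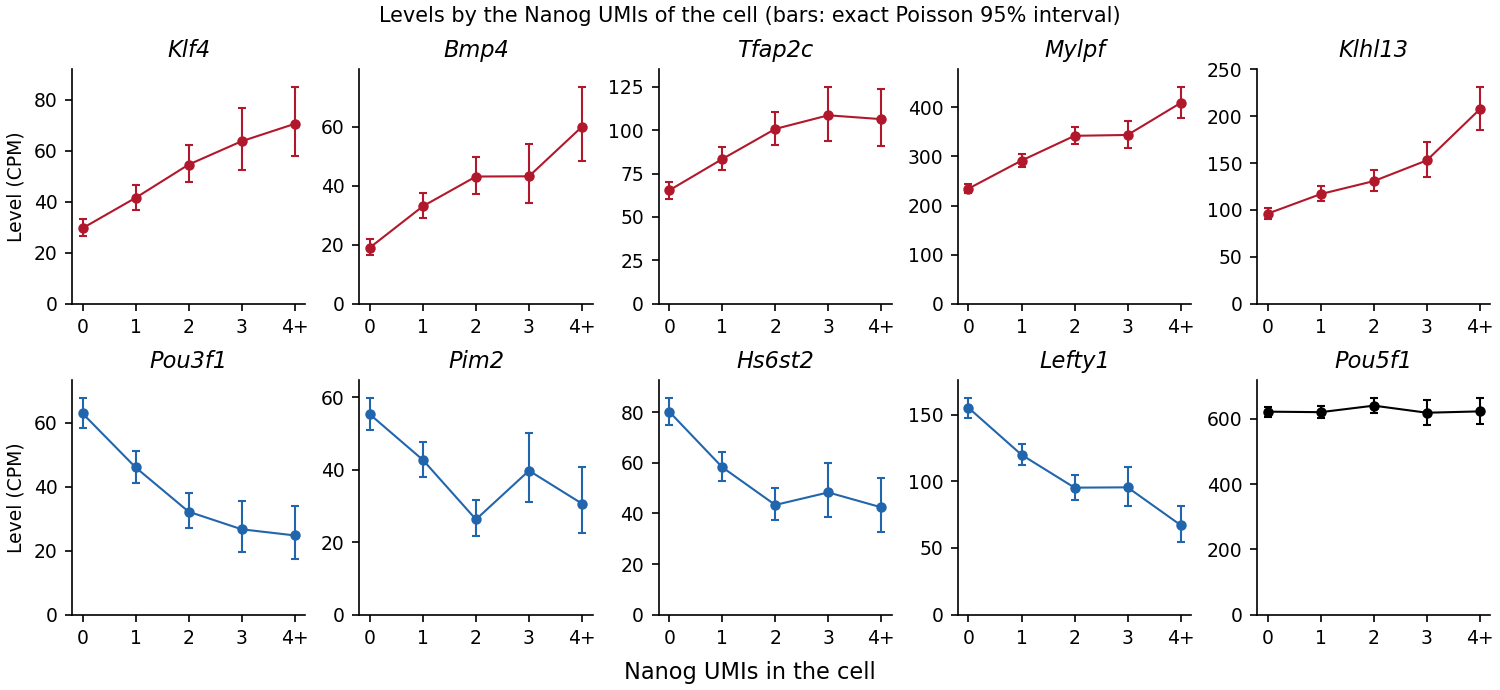
Level in CPM (vertical axis, from 0) by the Nanog UMIs of the cell (horizontal axis) for 5 higher genes (red), 4 lower genes (blue) and Pou5f1 (black); bars are exact Poisson 95% intervals. Klf4 goes from 29.6 to 70.5 CPM and Lefty1 from 155 to 67.2 CPM between 0 and at least 4 Nanog UMIs, while Pou5f1 stays between 619 and 641 CPM.

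By gene list, the naive pluripotency genes leaned to the Nanog-high side. Of 20 members with at least 20 CPM (24 listed, without the rule's own genes), 8 were higher, 1 was lower and 11 lay between, with a median log2 ratio of 0.21 against 0.01 over all genes tested. Over all 6515 genes 3.42% were higher and 2.19% lower, and these shares stand beside every list count below. The higher members were Klf4, Mylpf, Tbx3, Dppa3, Fgf4, Tfcp2l1, Zfp57 and Tcl1. Tfcp2l1, a factor of LIF-driven self-renewal, stood at 77.9 against 55.3 CPM. Tbx3, a T-box factor of naive cells, stood at 41.8 against 28.6 CPM, and Zfp57, which protects imprinted methylation, at 85.6 against 62.9 CPM. The lower member was Nodal, at 22.6 against 28.7 CPM, a 1.26-fold difference that was 1.11-fold in the weighted comparison. Prdm14, a repressor of the FGF pathway and of DNA methylation in naive cells, stayed under the level minimum with 130 UMIs (17.3 CPM, 14.5 to 20.5) in Nanog-high and 67 UMIs (6.25 CPM, 4.84 to 7.94) in Nanog-negative cells.

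The primed and formative epiblast list leaned the other way. Of its 12 members with at least 20 CPM (20 listed), 5 were lower in Nanog-high cells, none was higher and 7 lay between, with a median log2 ratio of -0.30 and of -0.25 in the weighted comparison. These were Pou3f1, Pim2, Sox4 (13.4 against 24.6 CPM), Sox11 (28.7 against 43.5 CPM) and Lef1, an effector of WNT signals (65.2 against 87.6 CPM, 1.34-fold lower but 1.20-fold in the weighted comparison). Several differences were smaller where the naive markers reached at least 20 per 10000 UMIs. There Sox4, 1.77-fold lower over all cells, differed by only -0.18 on the log2 scale and Sox11 by -0.21, both under the 25% rule. Pou3f1 went from -1.07 to -0.53 and Pim2 from -0.85 to -0.58. After thinning, Sox4 was found in 55.2% and Sox11 in 16.7% of collagen-rich cells, against 11.1% and 15.9% of Nanog-negative cells. Pou3f1, Pim2 and Lef1 were less frequent in collagen-rich cells than on either side. Otx2, a homeobox factor of the primed state, stood at 61.0 and 68.3 CPM. Fgf5, its growth factor, had 32 and 106 UMIs, or 4.26 CPM (2.91 to 6.01) and 9.89 CPM (8.10 to 12), against 41.4 CPM in the remaining cells. Dnmt3b, a de novo methyltransferase, stood at 152 and 188 CPM. None of the 11 DNA methylation and Tet genes was higher or lower by 25%, which lies near the shares over all genes.

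Among signalling lists, 5 of 9 LIF and STAT3 response genes were higher and none lower, with a median log2 ratio of 0.38. Besides Klf4 and Tfcp2l1 these were Il6st, the shared receptor gp130, at 25.2 against 17.1 CPM, its kinase Jak1, and Bcl3, which was 1.39-fold higher at 20.1 against 14.2 CPM but no longer by 25% in the weighted comparison. Stat3 itself stood at 21.0 and 26.1 CPM. After thinning, Il6st was found in 28.1% of collagen-rich and 12.4% of Nanog-high cells, and Bcl3 in 18.6% and 10.3%. Tfcp2l1 was found in 1.81% and 28.7%. In the Nodal list, 1 of 9 members was higher and 3 lower: Pcsk6, a protease that cleaves the Nodal precursor, stood at 38.7 against 24.5 CPM, while Nodal, its inhibitor Lefty1 and Skil were lower. Of 8 genes in the BMP list 2 were higher, Bmp4 and Tfap2c. Id1, a direct BMP target, stood at 80.1 CPM (73.8 to 86.8) in Nanog-high and 94.8 CPM (89.0 to 101) in Nanog-negative cells, against the direction of its ligand. Smad7, of the same list, went with the ligand, at a log2 ratio of 0.28 against -0.24 for Id1, both under the 25% rule. In that list 5 members had a positive and 3 a negative ratio, with a median of 0.10. In the FGF and ERK list Fgf4, the ligand made by naive cells, was higher at 74.4 against 52.0 CPM, and the responding factors Egr1, at 23.4 against 33.1 CPM, and Etv1, at 25.2 against 32.9 CPM, were lower. Etv1 was 1.19-fold lower in the weighted comparison. Both differences were smaller in deeper cells: the log2 ratio was -0.78 for Egr1 and -0.77 for Etv1 in cells of 5000 to 8000 UMIs, and -0.16 and -0.13, under the 25% rule, in cells of 8000 to 12000. Fgf4 was also under the rule in the deeper cells, at 0.31. Egr1 belongs as well to the immediate early and stress list, whose genes respond to handling such as dissociation. Of its 10 members with at least 20 CPM, 2 were lower, Egr1 and Btg2, none was higher, and the median log2 ratio was -0.03; the part of handling in the result was not tested.

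Of the 5 primordial germ cell genes with at least 20 CPM (10 listed), 3 were higher in Nanog-high cells, none was lower and 2 lay between. The higher ones were Tfap2c, Dppa3, also called Stella, at 223 against 157 CPM, and Nanos3, at 31.8 against 21.6 CPM. The nearest protein-coding genes to Nanog on each side in the RefSeq annotation are Dppa3 and Slc2a3, a glucose transporter. Slc2a3 stood at 557 CPM (540 to 574) against 394 CPM (383 to 407), 1.41-fold, while Gdf3, the next gene beyond Dppa3, stood at 59.1 and 54.4 CPM and Foxj2, beyond Slc2a3, at 4.26 and 3.45 CPM. Of the p53 target and apoptosis genes 3 of 15 were lower, Bbc3, Plk2 and Ccng1, and none higher. In the weighted comparison Plk2 was 1.19-fold and Ccng1 1.16-fold lower. That list's median of -0.22 went to -0.06 in the weighted comparison. Of 11 imprinted genes 4 were lower, namely Meg3, at 744 against 1023 CPM, Rian and Mirg, all 3 noncoding RNAs of 1 imprinted cluster, and Phlda2, and none higher. Phlda2 was 1.24-fold lower in the weighted comparison.

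Growth and housekeeping lists held few genes that differed by 25%, as did all 6515 genes tested, of which 3.42% were higher and 2.19% lower. Counts as low as those below lie near these shares in lists of this size and by themselves set none of the lists apart. Of the 30 G2 and M phase, 22 cytosolic ribosomal protein, 13 mitochondrially encoded, 20 nuclear OXPHOS and 14 MYC and growth genes none did so, and of 29 S phase genes 1, Gins2, did, at 41.5 against 54.2 CPM. Of 19 genes of chromatin complexes none did, with Suz12, of Polycomb complex PRC2, at 326 and 272 CPM. Small shifts shared by a list are not seen in such counts. Of the 22 ribosomal protein genes 21 had a negative ratio, with a median log2 ratio of -0.05 (-0.04 weighted). Of the 30 G2 and M phase genes 24 had a positive ratio, with a median of 0.07 (0.01 weighted). The median over all genes tested was 0.01.

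**Figure D4:**
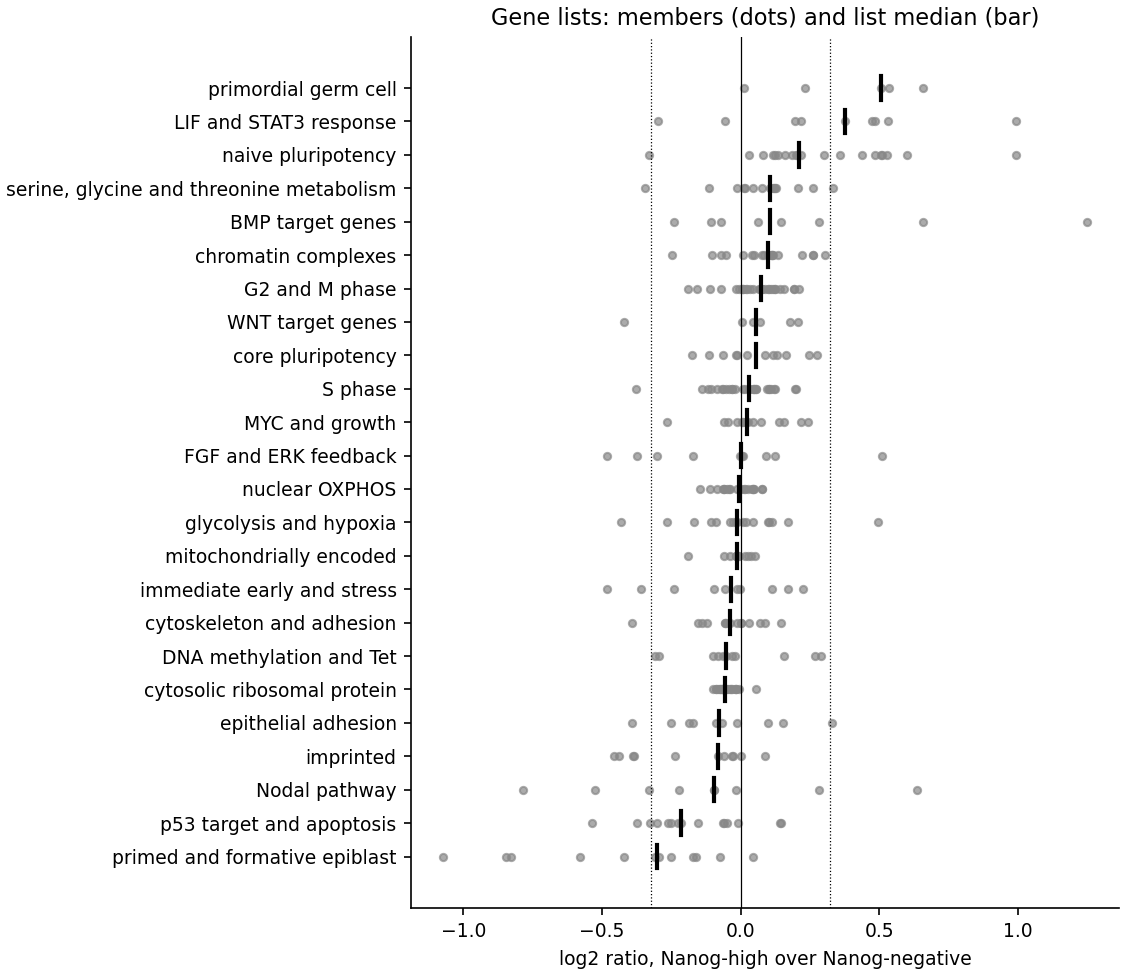
Log2 ratio of Nanog-high over Nanog-negative (horizontal axis) for the members with at least 20 CPM (dots) of each list with at least 5 such members, with the list median as a bar; dotted lines mark a 25% difference. The primordial germ cell, LIF and STAT3 and naive lists have medians of 0.51, 0.38 and 0.21, and the primed list has the lowest, at -0.30.

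The promoter of Nanog is shown because its known composite element binds OCT4 and SOX2, whose genes stood at a 1.02-fold and a 1.19-fold level between the sides. Pim2 is shown because it is the only other named gene of those searched whose upstream 250 bases held the octamer core TTTGCAT. Capitals mark the composite, TTTGCAT followed after 1 base by ACAATG, in Nanog and each TTTGCAT, or its reverse complement, in Pim2; the composite contains the octamer core. Both are the 250 bases before the start site that lies farthest upstream, from RefSeq on build GRCm38.p6, plus strand, at chr6:122707239-122707488 and chrX:7878056-7878305.
Nanog: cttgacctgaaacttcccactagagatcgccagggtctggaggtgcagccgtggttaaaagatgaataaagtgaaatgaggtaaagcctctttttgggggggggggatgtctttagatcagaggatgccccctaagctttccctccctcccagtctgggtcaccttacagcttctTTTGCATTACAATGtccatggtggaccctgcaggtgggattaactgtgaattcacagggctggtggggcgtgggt
Pim2: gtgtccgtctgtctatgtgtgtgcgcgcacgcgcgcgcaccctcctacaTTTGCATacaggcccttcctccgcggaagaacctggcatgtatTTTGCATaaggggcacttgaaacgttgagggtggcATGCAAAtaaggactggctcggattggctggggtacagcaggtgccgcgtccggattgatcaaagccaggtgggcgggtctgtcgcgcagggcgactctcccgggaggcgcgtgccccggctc

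The composite starts 75 bases before this start of Nanog, and among 32851 upstream stretches it was found, on either strand, in 2, both of Nanog. The search used 1 fixed string that the known Nanog element matches. Other forms of such a composite were not counted, so this does not show that other promoters lack one. The octamer core was found in 4.12% of stretches and in those of 2 of the 19 named genes with an entry, Nanog and Pim2, which has 3 copies. The sequence TTCCNGGAA, a form of the STAT site, was found in 0.913% of stretches and in those of none of the 19 genes. A match is a description of letters and shows no binding.

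**Figure D5:**
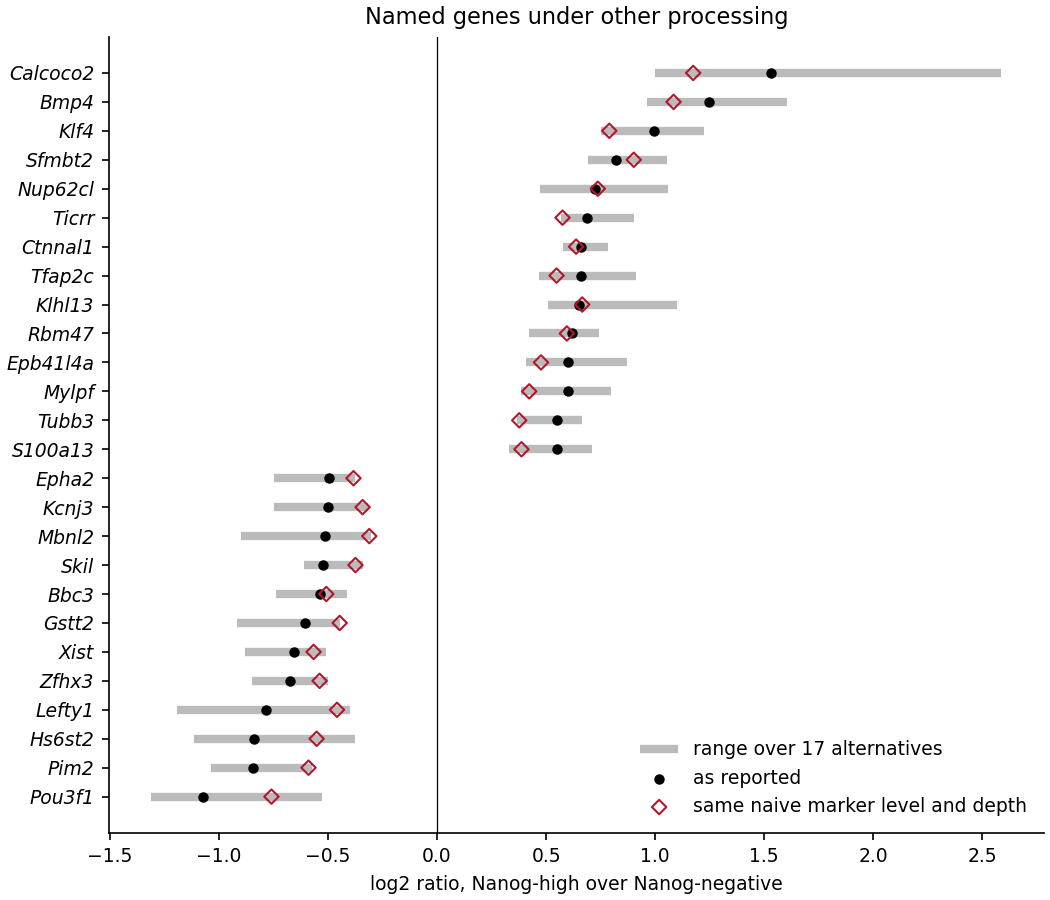
Log2 ratio of Nanog-high over Nanog-negative (horizontal axis) for the 24 genes named by rule with Bmp4 and Calcoco2; black dots are the values reported, red diamonds the weighted comparison, and grey bars the range over 17 alternatives. The bars of all 26 genes stay on 1 side of 0, and the widest is that of Calcoco2, from 1.0 to 2.59. For the 24 genes 1 direction in both depth bands was a condition of being named.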

How the data were processed

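The authors deposited raw UMI counts per feature and barcode from Cell Ranger 8.0.1, per the file headers, in 1 matrix of 2578653 barcodes and 33696 genes, and a table of called cells with a tag probability (a fraction, per the file headers) that was read here for its 21593 barcodes. The submitters' processing notes also list Seurat, of which no output was used here. Aligner settings, build and annotation are not given in the sources used here. Counts were read unscaled and summed per side (NumPy 2.4.6, SciPy 1.17.1). Doublets were called with Scrublet in scanpy 1.11.5, at an expected rate of 0.1, and left in except where stated. Free RNA was not removed. Cells were thinned to 5000 UMIs for shares. Sums and folds were tested on simulated data. Depth ran from 5000 to 12000 UMIs per cell. UMIs shared by similar gene copies could be split.

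The text names the 12 genes with the largest fold each way (at least 50 CPM on the higher side, a 25% difference, 1 direction in both depth bands; no rule genes, provisional, mitochondrial or ribosomal names), and up to 4 members per list by fold; genes named for their list count, place or role, such as Prdm14, were added after their values were seen. The rule for the cells, the members and the lists were chosen with earlier results of these data known. Planned comparisons held no test, since the library is 1 sample.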

Additional observations from a re-analysis of the deposited data

How the results depend on the processing

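Across 17 alternatives, 16 of them planned and 1 (the weighted comparison without called doublets) added after the data were seen, all 24 genes named by rule kept their direction, and so did Bmp4 and Calcoco2. For the 24 genes the outcome in both depth bands was fixed in advance, since naming required 1 direction in both. The alternatives drew on the same library and largely on the same cells, and the 24 genes were picked for large folds. Kept directions are therefore no independent support. Of the named genes and list members that were followed, 1 called value changed sign: Chac1 stood at 0.018 on the log2 scale in cells of 5000 to 8000 UMIs. The cause was not tested. Calcoco2 reached 2.59 on the log2 scale with Nanog-high set at 4 UMIs or more. Where naive markers reached 20 per 10000 UMIs, Sox4 moved to -0.18 on the log2 scale, Sox11 to -0.21, Hs6st2 to -0.38 and Pou3f1 to -0.53.

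Counts of genes moved more than directions did. At a 25% difference, higher and lower genes numbered 379 and 298 in cells of 5000 to 8000 UMIs, 335 and 332 in cells of 8000 to 12000 UMIs, 337 and 329 with all cells thinned to 5000 UMIs and the sides drawn again, 447 and 263 with Nanog-high at 3 UMIs or more, and 746 and 472 at 4 or more. At 1.5-fold, in the same order, they numbered 45 and 44, 64 and 49, 43 and 57, 66 and 39, and 152 and 108. The 2 depth bands and the stricter Nanog thresholds hold fewer cells. The thinned setting held 587 Nanog-high and 2019 Nanog-negative cells, at fewer UMIs per cell. The cause of the larger counts was not tested. A pseudocount of 10 CPM gave 118 and 70 at 25% and 12 and 6 at 1.5-fold. A minimum of 10 CPM gave 374 and 319, and 46 and 48, and one of 50 CPM gave 85 and 49, and 10 and 7. Totals without mitochondrial and ribosomal protein genes gave 228 lower genes at 25% and 27 at 1.5-fold. The weighted comparison gave 4 lower genes at 1.5-fold. No paired analysis was possible because the matrix pools both samples and its cells carry no sample, and for the same reason no replicate could be left out. Intervals cover counting error only.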

Other observations

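X-linked genes were looked at after Klhl13, Nup62cl and Xist had been seen among the named genes, with chromosomes taken from GENCODE M21 by Ensembl identifier for 31961 genes. Protein-coding genes of the X chromosome among the named genes did not all go 1 way, since Pim2 was lower, at a log2 ratio of -0.85. Of 278 X-linked genes with at least 20 CPM, 23 were higher in Nanog-high cells by at least 25% and 7 lower, with a median log2 ratio of 0.05. Over all 6515 genes 3.42% were higher and 2.19% lower, with a median of 0.01. UMIs of X-linked genes other than Xist and Tsix were 5.99% of autosomal UMIs in Nanog-high (5.98 to 6.01%), 5.99% in cells with 1 Nanog UMI (5.97 to 6.01%), 5.87% in Nanog-negative (5.86 to 5.89%) and 5.24% in the remaining cells of the depth window (5.23 to 5.25%). A UMI of Xist was found in 19.5% of Nanog-high (17 to 22.2%) and 21.7% of Nanog-negative cells (19.6 to 23.9%), against 34.0% of the remaining cells (32.9 to 35.1%), before thinning. With each cell thinned to 5000 UMIs the shares of Xist were 14.1% in Nanog-high (11.9 to 16.5%) and 18.3% in Nanog-negative cells (16.3 to 20.3%), at median depths of 7825 and 6874 UMIs before thinning.

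The spread of single genes was read among all naive-like cells, thinned to 5000 UMIs. Meg3 had a variance of 3.96 times its mean, Xist 3.25, Id1 3.00 and S100a13 2.70, while Klf4 stood at 1.57, Bmp4 at 1.47 and Nanog itself at 1.30. The means were 4.45, 0.309, 0.450, 0.203, 0.207, 0.155 and 0.677 UMIs in the same order. For an equal relative spread this ratio rises with the mean, so it does not rank these genes by relative spread. The tag oligos gave median counts of 1081 UMIs of CMO311 in Nanog-high and 1129 in Nanog-negative cells, and of 315 and 334 UMIs of CMO312. All 4 medians lay below the 90th percentile of cell-free droplets, at 1228 and 478 UMIs.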
